A study of Mus musculus with 15 samples.

Results

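The citric acid cycle and the entry of pyruvate into it were followed in heart muscle cells of mice exposed to protons. The group was chosen by symbol, with earlier results of these data known, and holds 30 genes. Of these, 14 are for cycle enzymes, counting Mdh1, the cytosolic malate dehydrogenase, and 4 for the pyruvate dehydrogenase complex. Another 4 are for the kinases of that complex and 2 for its phosphatases. The rest are 4 for the exchange of malate and aspartate and for malic enzyme, and 2 for lactate dehydrogenase. All 30 were on the array and above the signal filter, out of 12102 genes kept of 19937 with a probe set of their own.

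RNA came from left ventricular cardiomyocytes, freed with collagenase and selected by stepwise return of calcium, of male C57Bl/6NT mice aged 8 to 9 months, and was read on Affymetrix Mouse Gene 1.0 ST arrays. The irradiated mice were exposed whole-body to 1 GeV protons, 90 cGy at 0.17 Gy/min, with a linear energy transfer of 0.22 keV/µm. Day 1 after exposure had 2 arrays, days 3 and 5 had 3 each, and days 12 and 26 had 2 each. They were set against 3 sham arrays, 2 of them of day 1 and 1 of day 3. Proton day 5 replicates 1 and 2 differed by an SD of 0.0768 on the log2 scale over the genes kept, against 0.222 to 0.527 for the other 104 pairs of arrays, and were averaged as 1 sample, which leaves 14 samples and n = 2 at day 5. No sham sample exists here for days 5, 12 and 26, so irradiation and time since handling cannot be told apart at those days. The days are those of the sample titles, and the design text of the series gives later days for the last 3 time points. The labels do not say whether arrays of a group came from separate mice, so the spread between samples may be partly technical, and precision is limited by how few arrays there are. In bulk RNA, fewer cells of a type and less RNA per cell cannot be told apart.

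Pyruvate made by glycolysis or from lactate enters mitochondria, where the pyruvate dehydrogenase complex turns it into acetyl-CoA. Pyruvate dehydrogenase kinases switch the complex off by phosphorylation, and its phosphatases switch it on again. Acetyl-CoA joins oxaloacetate to form citrate, and the cycle then yields the NADH and FADH2 that feed the respiratory chain. The adult heart draws most of its energy from fatty acids, and Pdk4, whose gene is a target of the PPAR nuclear receptors, is known for holding back pyruvate use when fatty acids are burnt.

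The promoter windows of 5 members are printed because the results turn on them. Suclg1, Fh1 and Got1 had the 3 smallest p-values of any member in the test of any proton day against sham, Pdk4 had the largest difference above sham at day 5, and Ldha is a textbook target of the hypoxia-inducible factor. Each window runs from 250 bases before to 50 bases after the transcription start in RefSeq, build GRCm38.p6, written 5′ to 3′ along the gene. They are chr6:73248255-73248554 on the plus strand for Suclg1, chr1:175625586-175625885 on the minus strand for Fh1, chr19:43524556-43524855 on the minus strand for Got1, chr6:5496229-5496528 on the minus strand for Pdk4 and chr7:46845554-46845853 on the plus strand for Ldha. Capitals mark matches on either strand to the letters AGGTCA, the half-site of nuclear receptors, ACGTG, the core of the hypoxia element, CCAAT, the CCAAT box, or the other motifs named below.
Suclg1: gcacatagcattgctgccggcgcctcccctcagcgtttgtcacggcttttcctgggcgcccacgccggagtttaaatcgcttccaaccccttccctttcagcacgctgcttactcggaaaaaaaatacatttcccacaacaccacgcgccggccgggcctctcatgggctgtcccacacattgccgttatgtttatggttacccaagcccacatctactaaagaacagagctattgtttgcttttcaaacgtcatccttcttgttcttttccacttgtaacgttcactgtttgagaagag
Fh1: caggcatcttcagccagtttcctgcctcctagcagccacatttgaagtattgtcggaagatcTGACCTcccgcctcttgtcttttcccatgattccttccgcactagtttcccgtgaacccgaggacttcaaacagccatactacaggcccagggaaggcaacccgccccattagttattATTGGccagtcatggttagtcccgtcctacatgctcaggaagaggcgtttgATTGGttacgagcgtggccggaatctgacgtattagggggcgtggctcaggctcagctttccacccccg
Got1: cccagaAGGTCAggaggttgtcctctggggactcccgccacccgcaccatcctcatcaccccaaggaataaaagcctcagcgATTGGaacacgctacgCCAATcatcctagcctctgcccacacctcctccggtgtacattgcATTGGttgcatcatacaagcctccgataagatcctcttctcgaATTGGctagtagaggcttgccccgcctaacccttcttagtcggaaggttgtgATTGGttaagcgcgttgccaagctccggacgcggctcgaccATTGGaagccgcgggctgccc
Pdk4: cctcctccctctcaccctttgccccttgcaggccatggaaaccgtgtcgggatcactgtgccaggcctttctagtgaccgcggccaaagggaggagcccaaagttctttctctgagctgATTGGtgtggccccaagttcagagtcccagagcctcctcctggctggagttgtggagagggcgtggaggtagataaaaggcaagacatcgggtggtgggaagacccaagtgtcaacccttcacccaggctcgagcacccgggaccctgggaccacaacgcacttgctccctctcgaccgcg
Ldha: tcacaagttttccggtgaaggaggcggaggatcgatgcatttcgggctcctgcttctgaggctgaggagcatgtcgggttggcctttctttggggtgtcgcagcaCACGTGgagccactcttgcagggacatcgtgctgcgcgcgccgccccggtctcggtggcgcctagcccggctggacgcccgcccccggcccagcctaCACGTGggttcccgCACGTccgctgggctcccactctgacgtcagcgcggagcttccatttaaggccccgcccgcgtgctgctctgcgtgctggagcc

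The Got1 window holds 6 CCAAT matches and 1 AGGTCA, the Fh1 window 2 CCAAT and 1 AGGTCA, and the Pdk4 window 1 CCAAT. The Suclg1 window holds none of the motifs searched. In the Ldha window the 5 ACGTG matches include both strands of a pair of CACGTG runs. RefSeq windows were matched for 28 of the 30 members, and Idh3a and Pdp1 are named only. A CCAAT match occurred in 16 of the 28 windows (57.1%), against 37.9% of all 27025 windows. That motif was added after the windows had been seen. The median base composition was 61.5% G or C in the members' windows and 52.7% in all windows. ACGTG was found in 8 windows (28.6%, against 19.7% of all) and AGGTCA in 6 (21.4%, against 16.0%). The ETS motif CCGGAAG was found in 3 (10.7%, against 9.12%) and the YY1 motif AAGATGGCG in 1 (3.57%, against 1.49%). The oestrogen-related receptor motif TNAAGGTCA, which contains AGGTCA, and the NRF1 motif GCATGCGC were in 0 of the 28, against 1.26% and 2.8% of all windows. Among the 9687 windows of genes kept on the array, the shares were 37.7% for CCAAT, 25.7% for ACGTG, 12.3% for AGGTCA and 17.0% for the ETS motif. They were 3.02% for the YY1 motif, 5.21% for the NRF1 motif and 0.692% for the oestrogen-related receptor motif. These matches describe the letters of the windows.

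No member passed an adjusted p of 0.05 in any of the 9 comparisons, and few genes of the whole array did. Among all 12102 genes, limma called 0 genes (0%) at day 1, 1 gene (0.00826%) at day 3, 6 genes (0.0496%) at day 5, 0 genes (0%) at day 12 and 5 genes (0.0413%) at day 26. It called 3 genes (0.0248%) in the mean of the 5 proton days minus sham and 1 gene (0.00826%) in days 12 and 26 minus days 1 and 3, here called late minus early. It called 3 genes (0.0248%) in the F-test of any proton day against sham, and 0 genes (0%) in the F-test of any difference among the proton days. The smallest adjusted p of a member was 0.144, for Pdp1 at day 26.

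Small differences below sham were spread over most members from day 5 on. All differences are on the log2 scale, proton minus sham. The members' median difference was -0.02 at day 1 and 0.02 at day 3, with 17 and 14 of the 30 below 0, against medians of -0.01 and 0.00 over all genes. At day 5 the median was -0.12, with 26 of 30 members below 0, against 0.01 over all genes, of which 48.8% were below 0. At day 12 the median was -0.09, again with 26 of 30 below 0, against 0.01 over all genes, of which 48.1% were below 0. By day 26 it was -0.07, with 23 of 30 below 0, against 0.05 over all genes, of which 41.2% were below 0.

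The sham day 3 sample was above both sham day 1 samples in 20 of the 30 members (66.7%), against 33.2% of all genes, and it weighs on these medians. Without it the median was 0.02 at day 1 and -0.07 at day 5. The day 12 median was -0.05 without proton day 12 replicate 2. At day 26 it was -0.15 without replicate 1 and -0.04 without replicate 2.

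Members with an unadjusted p under 0.05 were counted as a description. The members were chosen with earlier results of these data known. An excess over the share of all genes may therefore partly reflect that choice. At day 5 there were 7 members below sham at that level, with 4.78% of all genes, and at day 12 there were 8, with 4.62% of all genes. At day 26 there were 8 below sham, with 5.67% of all genes, and in the mean of the 5 days 7, with 5.86%. Late minus early had 14 members lower, with 6.38% of all genes. The F-test of any proton day against sham had 11 members at that level, with 9.54% of all genes. At day 5 the 2 samples lay below all 3 sham samples in 16 members, where 15.8% of all genes did. Such gaps between small groups were common among the 12102 genes. Below all sham samples lay 1799 genes at day 1, 1354 at day 12 and 1712 at day 26. Above all of them lay 1720 at day 1, 968 at day 3 and 2031 at day 5. The split of days 5, 12 and 26 against all other samples, described below for single members and a list mean, was not a fitted comparison. No share of all genes is given for it, so how common it was among them is not known here. The members vary together across samples, so the counts of members do not stand for independent genes.

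**Figure D1:**
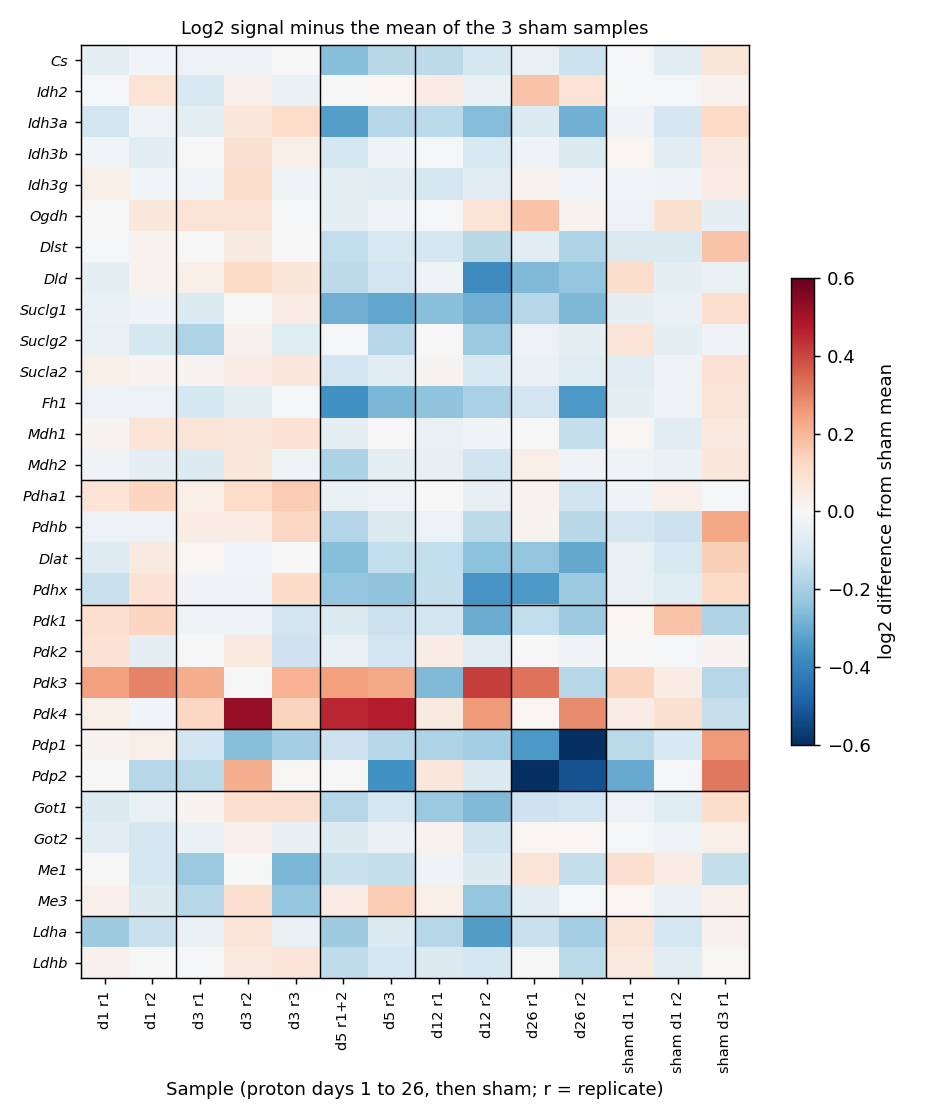
Heat map of the 30 members (rows, grouped by role) in the 14 samples (columns, proton days 1 to 26 and then sham), coloured by log2 signal minus the mean of the 3 sham samples. Blue is below that mean and red above it, and the colour scale ends at 0.6, which 2 values exceed. Blue cells are most frequent in the columns of days 5, 12 and 26, and the Pdk4 row is red at days 3 and 5.

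Among the 14 cycle genes the largest differences below sham were those of Suclg1 and Fh1. Suclg1 (chr6:73248505-73276907) encodes the alpha subunit of succinyl-CoA synthetase, which makes the ATP or GTP of the cycle. Its log2 signals were 9.58 and 9.60 at day 1, 9.54, 9.62 and 9.67 at day 3, 9.33 and 9.31 at day 5, 9.37 and 9.33 at day 12, and 9.45 and 9.35 at day 26, against 9.56, 9.58 and 9.72 in sham. All 6 samples of days 5, 12 and 26 were below every other sample. The difference from sham was -0.31 ± 0.07 at day 5 (SE; -19.1% on the linear scale), -0.27 ± 0.07 at day 12 and -0.23 ± 0.07 at day 26, with adjusted p of 0.351, 0.534 and 0.223. At days 1 and 3 it was -0.03 ± 0.07 and -0.01 ± 0.07.

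Fh1 (chr1:175601378-175625635) encodes fumarase, which hydrates fumarate to malate. It had log2 signals of 10.48 and 10.48 at day 1, 10.41, 10.46 and 10.50 at day 3, 10.15 and 10.24 at day 5, 10.27 and 10.32 at day 12, and 10.40 and 10.17 at day 26, against 10.46, 10.49 and 10.59 in sham. The samples of the last 3 time points were again the 6 lowest, with day 26 replicate 1 close to the lowest day 3 sample. The difference from sham was -0.32 ± 0.07 at day 5 (-19.7%), -0.22 ± 0.07 at day 12 and -0.23 ± 0.07 at day 26, with adjusted p of 0.316, 0.609 and 0.222. The day 26 samples differed from each other, and the difference was -0.35 without replicate 1 and -0.11 without replicate 2.

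Cs (chr10:128337727-128362482) encodes citrate synthase, the enzyme of the first step. Signals were 11.20 and 11.24 at day 1, 11.22, 11.23 and 11.26 at day 3, 11.00 and 11.09 at day 5, 11.10 and 11.15 at day 12, and 11.21 and 11.13 at day 26, against 11.25, 11.19 and 11.33 in sham. Both samples of day 5, both of day 12 and day 26 replicate 2 lay below all sham samples. The differences were -0.21 ± 0.06 at day 5 (adjusted p = 0.378), -0.13 ± 0.06 at day 12 and -0.09 ± 0.06 at day 26.

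Idh3a (chr9:54586511-54604662) encodes the catalytic subunit of the NAD-dependent isocitrate dehydrogenase. It read 10.73 and 10.81 at day 1, 10.78, 10.91 and 10.95 at day 3, 10.51 and 10.67 at day 5, 10.68 and 10.58 at day 12, and 10.76 and 10.55 at day 26, against 10.82, 10.74 and 10.96 in sham. Days 5 and 12 were below all sham samples, and day 26 replicate 1 was not. The differences were -0.25 ± 0.09, -0.21 ± 0.09 and -0.19 ± 0.09 at days 5, 12 and 26, with adjusted p of 0.456, 0.611 and 0.358. The genes of the other subunits of that enzyme were closer to sham at day 5, with -0.07 ± 0.05 for Idh3b and -0.06 ± 0.05 for Idh3g. Idh2, the NADP-dependent mitochondrial isocitrate dehydrogenase, ranged from 11.28 to 11.54 over the 14 samples and was 0.13 ± 0.05 above sham at day 26 (adjusted p = 0.313).

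Dlst and Dld encode the succinyltransferase and the dihydrolipoamide dehydrogenase of the oxoglutarate dehydrogenase complex, and Dld also serves pyruvate dehydrogenase. Dlst signals were 10.70 and 10.73 at day 1, 10.71, 10.76 and 10.71 at day 3, 10.56 and 10.61 at day 5, 10.60 and 10.54 at day 12, and 10.64 and 10.52 at day 26, against 10.62, 10.62 and 10.88 in sham. The sham day 3 sample was the highest of all, and days 12 and 26 lay below days 1 and 3 with no overlap. Dld signals were 9.62 and 9.70 at day 1, 9.71, 9.79 and 9.75 at day 3, 9.52 and 9.56 at day 5, 9.65 and 9.30 at day 12, and 9.41 and 9.44 at day 26, against 9.78, 9.62 and 9.63 in sham. The lowest Dld values were those of day 12 replicate 2 and both day 26 samples. Against sham at day 26, the difference was -0.25 ± 0.10 for Dld (adjusted p = 0.274) and -0.12 ± 0.08 for Dlst (adjusted p = 0.465). Ogdh, the gene of the first subunit of that complex, was 0.10 ± 0.06 above sham at day 26 (adjusted p = 0.481).

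At day 5 the remaining cycle genes were nearer to sham than Suclg1, Fh1, Cs and Idh3a. Mdh1, the cytosolic malate dehydrogenase, read 11.58 and 11.64 at day 1, 11.64, 11.63 and 11.65 at day 3, 11.51 and 11.56 at day 5, 11.52 and 11.54 at day 12, and 11.56 and 11.42 at day 26, against 11.57, 11.50 and 11.62 in sham. Proton samples overlapped sham at every day except day 3, when all 3 were above it, with a difference of 0.07 ± 0.05 (adjusted p = 0.663). Mdh2, the mitochondrial enzyme, was at -0.13 ± 0.06 at day 5 and 0.01 ± 0.06 at day 26. Its samples of days 5 and 12 lay below all sham samples. Sucla2 and Suclg2, the ATP- and GTP-forming beta subunits of succinyl-CoA synthetase, were at -0.09 ± 0.06 and -0.09 ± 0.09 at day 5. A second Suclg2 probe set with a lower mean signal gave -0.18 at day 26, against -0.04 for the one used, and correlated with it at r = 0.68 over the 14 samples.

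The 4 pyruvate dehydrogenase genes were all below sham in their mean differences at days 5, 12 and 26, with medians of -0.17, -0.15 and -0.17. Dlat (chr9:50634633-50659780) encodes the acetyltransferase core of the complex. Dlat signals were 9.81 and 9.94 at day 1, 9.90, 9.87 and 9.89 at day 3, 9.63 and 9.74 at day 5, 9.74 and 9.64 at day 12, and 9.65 and 9.58 at day 26, against 9.84, 9.79 and 10.03 in sham. The 6 samples of the last 3 time points were the lowest. The difference was -0.20 ± 0.08 at day 5, -0.20 ± 0.08 at day 12 and -0.28 ± 0.08 at day 26 (-17.4%), with adjusted p of 0.512, 0.611 and 0.196. Without the sham day 3 sample it was -0.13 at day 5 and -0.13 at day 12.

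Pdhx (chr2:103021055-103073513) encodes the protein that tethers dihydrolipoamide dehydrogenase to that core. Its signals were 8.68 and 8.90 at day 1, 8.79, 8.79 and 8.93 at day 3, 8.58 and 8.57 at day 5, 8.67 and 8.46 at day 12, and 8.47 and 8.59 at day 26, against 8.77, 8.74 and 8.93 in sham. The day 5, 12 and 26 samples were below the rest, though day 12 replicate 1 (8.67) was close to day 1 replicate 1 (8.68). The difference from sham was -0.24 ± 0.10, -0.25 ± 0.10 and -0.29 ± 0.10 at days 5, 12 and 26, with adjusted p of 0.531, 0.611 and 0.255. Without proton day 12 replicate 2, the day 12 difference was -0.14.

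Pdha1 (chrX:160122219-160138430) encodes the subunit that the kinases phosphorylate. It read 10.76 and 10.81 at day 1, 10.72, 10.79 and 10.83 at day 3, 10.64 and 10.65 at day 5, 10.68 and 10.63 at day 12, and 10.70 and 10.56 at day 26, against 10.66, 10.71 and 10.67 in sham. Pdha1 was above all sham samples at days 1 and 3, with a difference of 0.10 ± 0.06 (adjusted p = 0.754) and 0.10 ± 0.05 (adjusted p = 0.618), and near sham later, at -0.05 ± 0.06 by day 26. Pdhb, its partner subunit, ranged from 10.40 to 10.81 over all samples, and its highest value was the sham day 3 sample.

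The 4 kinase genes did not share a pattern. Pdk4 (chr6:5483351-5496278) had log2 signals of 10.69 and 10.64 at day 1, 10.78, 11.18 and 10.79 at day 3, 11.11 and 11.13 at day 5, 10.71 and 10.91 at day 12, and 10.67 and 10.94 at day 26, against 10.70, 10.75 and 10.52 in sham. Every sample of days 3 and 5 was above every sham sample, and the later days overlapped sham. Of all 12102 genes, 968 lay above every sham sample at day 3 and 2031 at day 5. The difference was 0.26 ± 0.11 at day 3 (adjusted p = 0.533), 0.46 ± 0.12 at day 5 (38.0% on the linear scale, adjusted p = 0.378), 0.16 ± 0.12 at day 12 and 0.15 ± 0.12 at day 26. At day 5 the 95% interval was 0.19 to 0.73 before adjustment. Leaving out day 3 replicate 2, the highest day 3 sample, gave 0.13 at day 3.

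Pdk1, a kinase gene that the hypoxia-inducible factor is known to switch on, read 9.05 and 9.08 at day 1, 8.92, 8.92 and 8.84 at day 3, 8.87 and 8.82 at day 5, 8.84 and 8.65 at day 12, and 8.80 and 8.73 at day 26, against 8.96, 9.12 and 8.77 in sham. The sham samples alone spanned most of that range. The difference was 0.11 ± 0.10 at day 1, -0.20 ± 0.10 at day 12 (adjusted p = 0.616) and -0.19 ± 0.10 at day 26 (adjusted p = 0.407). Pdk2, a broadly expressed kinase gene, gave 10.69 and 10.55 at day 1, 10.60, 10.66 and 10.48 at day 3, 10.56 and 10.49 at day 5, 10.65 and 10.54 at day 12, and 10.60 and 10.58 at day 26, against 10.60, 10.59 and 10.62 in sham. Its mean differences lay between -0.08 and 0.02. Pdk3 gave 5.24 and 5.29 at day 1, 5.21, 4.99 and 5.20 at day 3, 5.24 and 5.22 at day 5, 4.73 and 5.41 at day 12, and 5.32 and 4.82 at day 26, against 5.12, 5.04 and 4.82 in sham. Pdk3 values were close to the filter of 5.00, and their residual SD of 0.233 was the highest of the 30 members.

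The largest differences of any member were those of the phosphatase genes at day 26. Pdp1 (chr4:11958183-11966450), the calcium-stimulated phosphatase, had log2 signals of 8.94 and 8.96 at day 1, 8.81, 8.67 and 8.72 at day 3, 8.80 and 8.75 at day 5, 8.74 and 8.72 at day 12, and 8.58 and 8.31 at day 26, against 8.76, 8.83 and 9.18 in sham. Both day 26 samples were the lowest, and sham day 3 was the highest. The day 26 difference was -0.48 ± 0.12 (-28.2%), with an adjusted p of 0.144 that ran from 0.114 to 0.487 when arrays were left out in turn. Leaving out single arrays moved that difference between -0.61 and -0.34. Pdp2 was 5.73 and 5.84 at day 26 and between 6.00 and 6.68 in all other samples, with a day 26 difference of -0.58 ± 0.18 (adjusted p = 0.21).

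**Figure D2:**
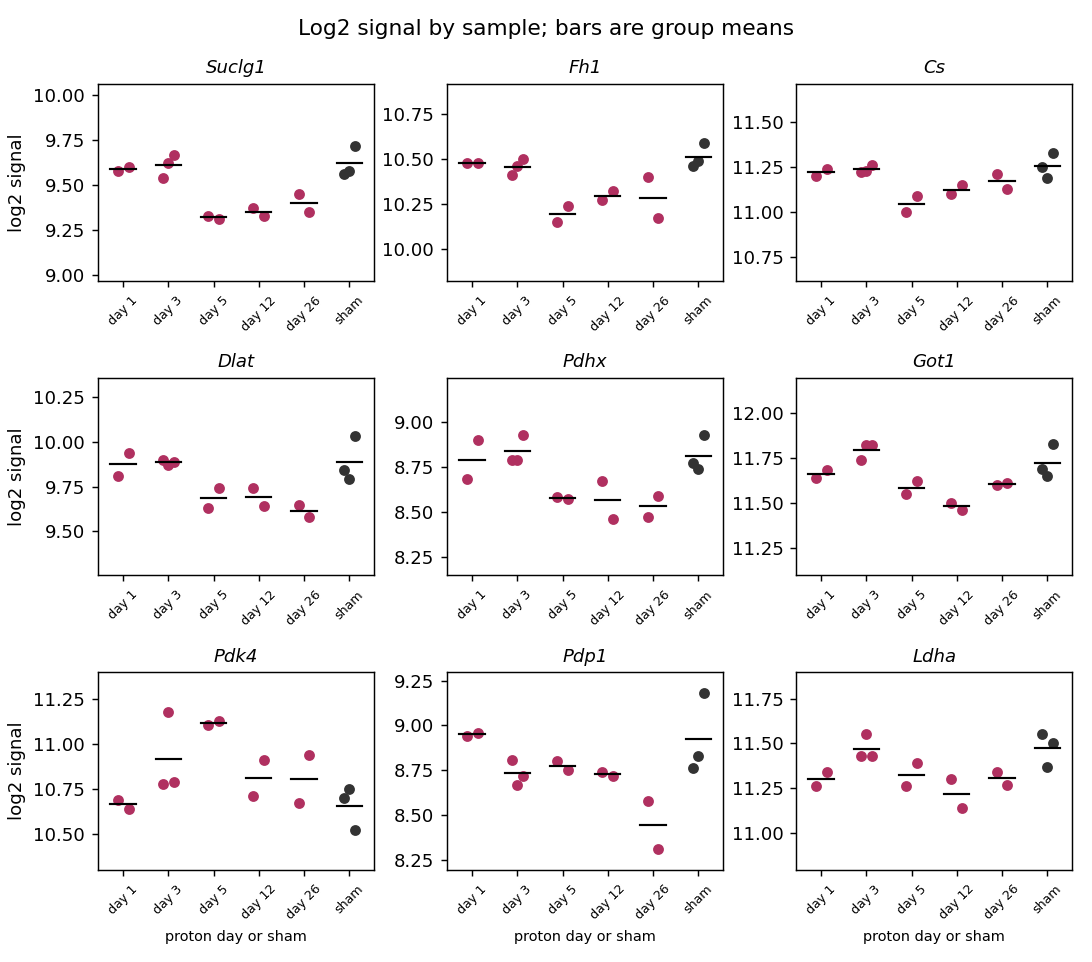
Log2 signal of 9 members in each sample (points) with group means (bars), by proton day in order and then sham, each panel spanning the same height. Points of days 5, 12 and 26 lie below sham for Suclg1, Fh1, Dlat, Pdhx and Got1, Pdk4 points of days 3 and 5 lie above sham, and Pdp1 is lowest at day 26.

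Got1 (chr19:43499752-43524605) encodes the cytosolic aspartate aminotransferase of the malate-aspartate shuttle, which carries reducing equivalents into mitochondria. Its signals were 11.64 and 11.68 at day 1, 11.74, 11.82 and 11.82 at day 3, 11.55 and 11.62 at day 5, 11.50 and 11.46 at day 12, and 11.60 and 11.61 at day 26, against 11.69, 11.65 and 11.83 in sham. The samples of days 5, 12 and 26 were below all others, and day 12 was lowest. The gap was small, with 11.62 at day 5 close to 11.64 at day 1. The difference was -0.14 ± 0.06 at day 5, -0.24 ± 0.06 at day 12 (-15.5%) and -0.12 ± 0.06 at day 26, with adjusted p of 0.512, 0.492 and 0.377. Without the sham day 3 sample, the day 5 difference was -0.08. Got1 had the smallest p of any member in the F-test of any proton day against sham (limma, adjusted p = 0.252). Got2, the mitochondrial partner enzyme, stayed between -0.08 ± 0.05 at day 1 and 0.01 ± 0.05 at day 26.

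The malic enzyme genes Me1 and Me3, which link malate to pyruvate, had differences between -0.17 and 0.10. A second Me1 probe set gave -0.47 at day 5, against -0.14 for the one used, and the probe sets correlated at r = 0.38, so the array leaves the size of the Me1 difference uncertain.

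Ldha (chr7:46842274-46855627) and Ldhb encode the muscle-type and heart-type subunits of lactate dehydrogenase, which interconverts pyruvate and lactate. Ldha signals were 11.26 and 11.34 at day 1, 11.43, 11.55 and 11.43 at day 3, 11.26 and 11.39 at day 5, 11.30 and 11.14 at day 12, and 11.34 and 11.27 at day 26, against 11.55, 11.37 and 11.50 in sham. Days 1, 12 and 26 were below all sham samples, day 5 was not, and day 3 overlapped sham fully. The differences were -0.17 ± 0.07 at day 1 (adjusted p = 0.754), -0.25 ± 0.07 at day 12 (adjusted p = 0.57) and -0.16 ± 0.07 at day 26 (adjusted p = 0.329). For Ldhb the signals were 11.23 and 11.20 at day 1, 11.19, 11.26 and 11.28 at day 3, 11.05 and 11.10 at day 5, 11.12 and 11.10 at day 12, and 11.20 and 11.04 at day 26, against 11.26, 11.14 and 11.21 in sham. Ldhb was below every sham sample at days 5 and 12, with differences of -0.13 ± 0.06 and -0.09 ± 0.06 (adjusted p = 0.559 and 0.653). A second Ldhb probe set correlated with the one used at r = 0.95 and gave -0.15 and -0.11 at these days.

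The difference between later and earlier proton samples does not use sham. Its SE and adjusted p do, since the residual variance was fitted over all groups. In late minus early, 25 of 30 members were below 0, with a median of -0.12, against 0.03 over all genes, of which 43.2% were below 0. No member passed the adjusted threshold, and the smallest adjusted p was 0.149. Late samples lay below all early samples in 9 members, where 2.59% of all genes did. These were Dlst, Suclg1, Fh1, Mdh1, Pdha1, Dlat, Pdhx, Pdk1 and Got1. The differences were -0.23 ± 0.05 for Suclg1 (adjusted p = 0.153), -0.23 ± 0.06 for Dlat (0.194), -0.27 ± 0.08 for Pdhx (0.206) and -0.18 ± 0.04 for Got1 (0.149). Dld had -0.26 ± 0.07 (adjusted p = 0.2), Pdk1 -0.23 ± 0.07 (0.246), Pdha1 -0.14 ± 0.04 (0.237) and Mdh1 -0.12 ± 0.04 (0.255). Ogdh, Suclg2, Mdh2, Pdk2, Pdk4, Got2 and Me3 were within 0.03 of 0, though the second Suclg2 probe set gave -0.14. Without proton day 26 replicate 2 the members' median was -0.07, and the difference was -0.12 for Fh1 and -0.08 for Mdh1. Without proton day 12 replicate 2, that of Dld was -0.17.

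**Figure D3:**
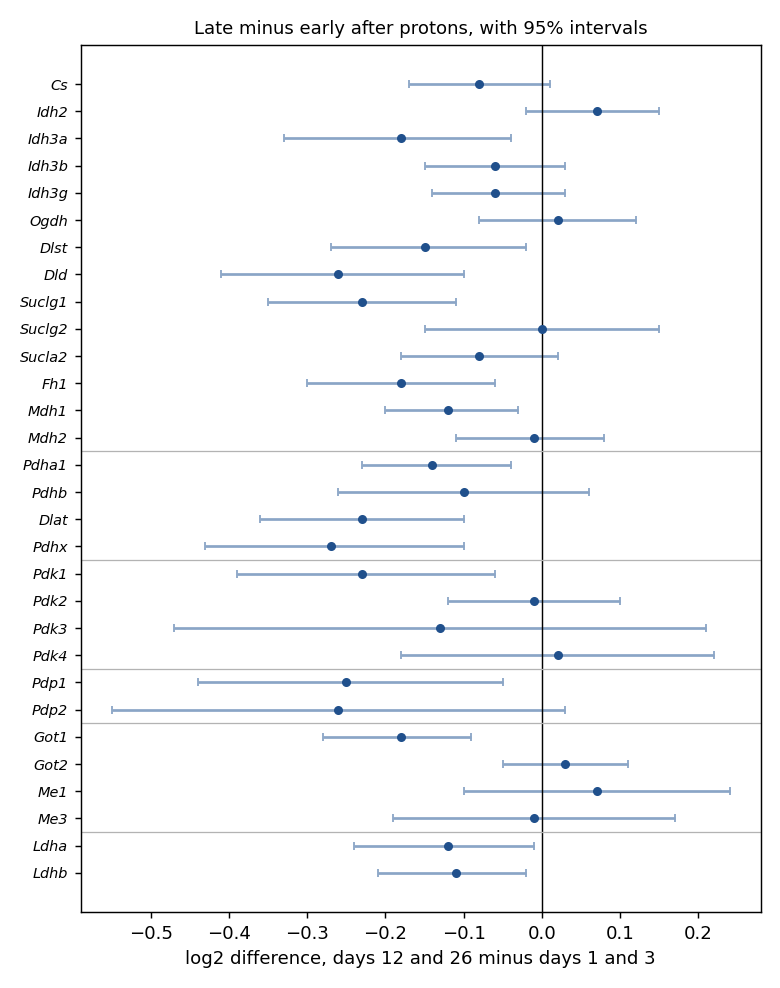
Log2 difference of proton days 12 and 26 minus days 1 and 3 for each member (points) with 95% intervals before adjustment over genes (bars), in order of role. In 14 members the interval lies wholly below 0, and in 0 members wholly above it.

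Averaged over the 5 proton days, 25 of 30 members were below sham, with a median of -0.06, against 0.01 over all genes. Of all genes, 46.7% were below sham. The smallest adjusted p of a member was 0.308. Without the sham day 3 sample the median was -0.02. The largest mean differences were those of Pdk4 at 0.21 ± 0.09 and Pdp1 at -0.20 ± 0.09, followed by Suclg1 at -0.17 ± 0.05 and Fh1 at -0.17 ± 0.05. That order rests on the sham day 3 sample, without which Pdp1 was at -0.07 and Pdk4 at 0.14. Leaving out single arrays gave -0.20 to -0.12 for Suclg1 and -0.20 to -0.13 for Fh1.

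The cycle and pyruvate dehydrogenase genes tended to vary together over the samples, differences between groups included. Idh2 did not, with a median r of -0.1 with the other 17 genes, ranging from -0.32 to 0.37. Over the 14 samples the median Pearson r of the 153 pairs among these 18 genes was 0.62, ranging from -0.32 to 0.93, as a description of samples that share arrays and scaling. The closest pairs were Suclg1 with Fh1 (0.93), Cs with Fh1, Idh3a with Suclg1, Dlst with Dlat, and Dlat with Pdhx (0.91 each). Pdk4 ran the other way, at -0.64 with Cs, -0.63 with Fh1 and -0.51 with Suclg1, and a median of -0.36 over the 18. Genes whose pattern was most like that of Pdk4 were Il17b (r = 0.841), Syndig1 (0.836), Lekr1 (0.826), Urb2 (0.82) and 4632415L05Rik (0.807). Those most like Got1 were Syde2 (0.89), Mmachc (0.886), Plpbp (0.88), Sod2 (0.87) and Lrrfip2 (0.868). The spread within groups was small for the members, with a median residual SD of 0.078, against 0.165 over all genes. These medians are not matched for signal. The members of lowest mean signal, Pdk3 (5.12) and Pdp2 (6.25), had the largest residual SDs, 0.233 and 0.213.

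Cell makeup was read from marker lists in the same samples. All 18 cardiomyocyte markers were above the filter, and their mean deviation stayed between -0.06 and 0.07 in every sample. Against sham, 12 of the 18 were below 0 at day 5, 14 at day 12 and 14 at day 26. Their medians were -0.05, -0.06 and -0.03 at these days. Below all sham samples lay 7, 8 and 4 of these markers, and above all of them 1, 0 and 0. Whether the members' differences go beyond those of these markers was not tested. The 18 cycle and pyruvate dehydrogenase genes averaged 0.02 and 0.06 at day 1, 0.03, 0.09 and 0.08 at day 3, -0.11 and -0.07 at day 5, -0.03 and -0.11 at day 12, and -0.01 and -0.09 at day 26, against 0.02, 0.00 and 0.12 in sham. The 6 lowest of these means were those of days 5, 12 and 26.

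Per the labels, some inflammatory or endothelial cells may remain after isolation, and markers of other cells varied more between samples. Of these, 15 of 15 endothelial, 13 of 15 fibroblast and 18 of 20 macrophage genes were above the filter, those below it being Tcf21, Fap, Aif1 and Ccr2. Their joint score was 0.10 to 0.45 at day 1, -0.70 to 0.49 at day 3, -0.08 to 0.12 at day 5, -0.29 to 0.70 at day 12 and 0.08 to 0.48 at day 26, against -0.43 to -0.06 in sham. In late minus early the median difference was 0.27 for endothelial, 0.25 for fibroblast and 0.21 for macrophage markers, against -0.01 for cardiomyocyte markers. Some lists outside the score had medians farther from 0 in that comparison, at 0.69 for lymphocyte markers (8 of 8 measured above 0), 0.69 for adipocyte markers (5 of 5 above 0), -0.52 for neutrophil markers (5 of 5 below 0) and -1.01 for erythroid and platelet markers (5 of 6 below 0). Smooth muscle, atrial and mesothelial markers were nearer, at 0.24, 0.21 and 0.14. Against sham at day 26, the medians were 1.71 for adipocyte, 1.04 for lymphocyte, 0.91 for atrial and -1.42 for erythroid and platelet markers. The mean deviation of lymphocyte markers was 0.14 to 0.18 at day 1, -1.18 to 0.00 at day 3, 0.26 to 0.59 at day 5, -0.18 to 0.89 at day 12 and 0.72 to 0.82 at day 26, against -0.62 to -0.33 in sham. No marker in these lists passed the adjusted threshold in late minus early, and their part in the members' differences was not tested.

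The score of endothelial, fibroblast and macrophage markers was also fitted. It holds none of the lymphocyte, adipocyte, neutrophil or erythroid and platelet markers, so this fit cannot show the part of those cells. With the score as a covariate the members' median was -0.11 in late minus early, -0.11 at day 5, -0.08 at day 12 and -0.09 at day 26, close to the values without it. In that fit of late minus early, 354 of all genes (2.93%) and 2 members passed the adjusted threshold. These were Suclg1 (-0.23 ± 0.06, adjusted p = 0.0411) and Got1 (-0.18 ± 0.04, adjusted p = 0.0431), both lower late.

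**Figure D4:**
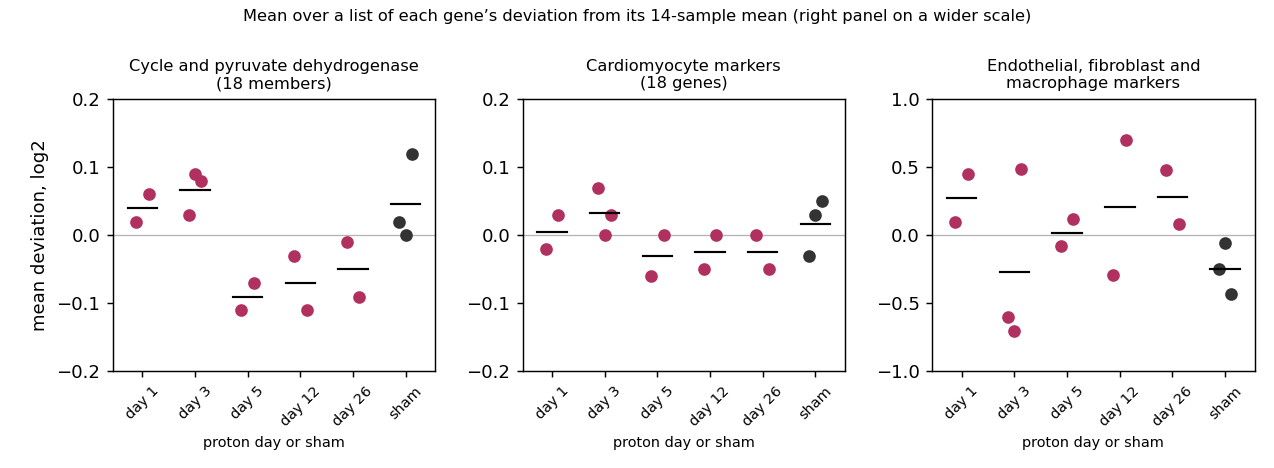
Mean over a list of each gene's deviation from its 14-sample mean (log2), per sample (points) with group means (bars), by proton day and then sham; the right panel has a wider scale. Cycle and pyruvate dehydrogenase genes (left) are below 0 in the samples of days 5, 12 and 26, cardiomyocyte markers (middle) stay between -0.06 and 0.07, and the score of endothelial, fibroblast and macrophage markers (right) spreads from -0.70 to 0.70.

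Genes around the pathway were taken from 3 further lists, and none of their genes passed the adjusted threshold in any comparison. For comparison, 49.0% of all genes were below 0 at day 3, 48.8% at day 5, 48.1% at day 12 and 43.2% in late minus early. Of 54 genes for related enzymes, carriers and assembly factors, 51 were measured, with a median of -0.09 at day 5 and 36 of 51 below 0. In late minus early, 31 of these 51 were below 0, with a median of -0.04. The smallest adjusted p among them was 0.0685, for Idh1, the cytosolic isocitrate dehydrogenase, which was -0.48 ± 0.09 from sham at day 26. Slc25a13, an aspartate-glutamate carrier of the malate-aspartate shuttle, was at -0.40 ± 0.12 at day 26 (adjusted p = 0.2). Gpd1, the cytosolic enzyme of the glycerol phosphate shuttle, was at -0.45 ± 0.13 at day 12 (adjusted p = 0.57), and Clpx, a subunit of a mitochondrial protease, at 0.29 ± 0.08 at day 3 (adjusted p = 0.301).

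Regulators of mitochondrial genes and PPAR targets had 34 of 40 genes above the filter, and 26 of the 34 were above 0 at day 3, with a median of 0.08. At day 5, 18 of the 34 were below 0, with a median of -0.01, and in late minus early 21 were below 0, with a median of -0.06. Ppargc1a, the coactivator known to drive mitochondrial genes, was 0.43 ± 0.11 above sham at day 3 (adjusted p = 0.271) and -0.03 ± 0.12 from it at day 5. Klf15, a transcription factor of cardiac fuel use, was 0.47 ± 0.10 above sham at day 3 (adjusted p = 0.222) and 0.40 ± 0.11 at day 26 (adjusted p = 0.182). Vldlr, a lipoprotein receptor, was above sham by 0.31 ± 0.06 in the mean of the 5 days (adjusted p = 0.114). Ucp3, a mitochondrial carrier and PPAR target, was at 0.34 ± 0.20 at day 5 and -0.69 ± 0.20 at day 26 (adjusted p = 0.194).

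Of 16 hypoxia targets 14 were above the filter, and 10 of them were above 0 at day 3, with a median of 0.15. At days 5 and 12, 9 of the 14 were below 0 at each day, with medians of -0.04 and -0.06, and in late minus early 10 were below 0, with a median of -0.08. P4ha1, a collagen prolyl hydroxylase subunit, was 0.75 ± 0.13 above sham at day 26 (adjusted p = 0.0528). Slc2a1, a glucose transporter gene, was 0.39 ± 0.08 above sham at day 3 (adjusted p = 0.22) and 0.36 ± 0.09 at day 5 (adjusted p = 0.378). Ddit4, a stress-induced inhibitor of mTOR signalling, was at -0.71 ± 0.23 at day 12 (adjusted p = 0.603), and Egln3, an oxygen-sensing prolyl hydroxylase, at -0.31 ± 0.07 in late minus early (adjusted p = 0.147). The named genes of the list thus had differences of both signs. Ldha and Pdk1, known targets of the same factor, are members and not among these 14 genes, and were at -0.25 and -0.20 at day 12.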

How the data were processed

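The deposited table holds log2 signals of 34760 probe sets on 15 arrays, made by the authors with MAS5, per the submitters' processing notes, which give no version. Background correction and normalization are not given in the sources used here. Array medians ran from 4.90 to 5.16 and 95th percentiles from 9.11 to 9.16, and the values were used as deposited. Signals of different probe sets were not set against each other, and arrays carry no count of depth.

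Of the probe sets, 21640 carried 1 gene symbol, 1321 several and 11799 had no entry in the platform annotation, and 21553 of the first were found in RefSeq's GRCm38.p6 table of genes. Each gene was represented by its single-symbol probe set of highest mean (954 genes had several), and 12102 genes with a mean above 5.00, the median of all probe sets, were kept.

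Samples were grouped by the treatment and day in their titles, with the 3 sham samples as control of every day. The near-identical proton day 5 replicates 1 and 2 were averaged. A linear model with a trended prior variance (limma 3.58.1 under R 4.3.3) was fitted on 14 samples in 6 groups, with 8 residual and 12.1 total degrees of freedom, and tested on simulated data. Benjamini-Hochberg adjustment covered the 12102 genes, with a threshold of 0.05. Where RefSeq lists several promoter windows for a gene, the first was used. List means, correlations and motif searches used Python 3.11.15 with numpy 2.4.6 and pandas 2.3.3. The main fit used no pairing by replicate number. Of 26 same-numbered pairs in different groups, 10 had a correlation of residuals above 0.1. The median was -0.081 and the range -0.72 to 0.46. In a group of 2 the residuals of the samples mirror each other. The 26 values are therefore not independent, and this check cannot exclude a pairing.

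The members and lists were chosen with earlier results of these data known. Sample values are given for the Pdk genes and for members with an unadjusted p under 0.05 in the F-test against sham, the mean of the 5 days or late minus early. Related lists are named by up to 4 genes with the smallest p of that F-test, and Pdk4 and Got1 by their 5 most correlated genes. Other members are named by range, and second probe sets and promoter windows were chosen for naming after values were seen. Alternatives covered normalization, filter, probe sets, variance, array weights, sham samples, the score of other cells, a replicate block and leaving out each array.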

Additional observations from a re-analysis of the deposited data

How the results depend on the processing

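No member passed the adjusted threshold under any of 11 other settings or with any of the 15 arrays left out, except in late minus early with the score of other cells as a covariate, where 2 did. Single-member results were followed where a member with printed sample values had an unadjusted p under 0.05 in the main fit. Of 1208 values of these 47 results under the alternatives, 0 reversed. Results so chosen lie away from 0 and were refitted on nearly the same arrays, so a reversal was unlikely from the start. With sham of day 1 only, the members' median log2 difference was 0.02 at day 1, -0.07 at day 5 and -0.02 in the mean of the 5 days. The fit with the replicate number as a block, which also lacks the sham day 3 sample, gave the same 0.02, -0.07 and -0.02, so those values cannot be told apart from the loss of that sample. Under the block 0 members were called, and of all genes 1 was called at day 3, 2 in late minus early and 1 among days. Without single arrays the members' median ran from -0.04 to 0.02 at day 1, -0.01 to 0.05 at day 3, -0.13 to -0.07 at day 5, -0.12 to -0.05 at day 12, -0.15 to -0.04 at day 26, -0.08 to -0.02 in the mean of the 5 days and -0.15 to -0.07 in late minus early. Over all genes, the count of calls ranged over the alternatives from 1 to 98 at day 3, 0 to 47 at day 5, 0 to 309 at day 26, 0 to 24 in the mean of the 5 days, 0 to 354 in late minus early, 0 to 138 for any proton day and 0 to 60 among proton days, with the highest counts under array weights or the score of other cells. At days 1 and 12 it stayed at 0 to 3 and 0 to 2. Groups of 2 or 3 samples and 3 sham samples limit what could pass, and signals near the filter, as for Pdk3, vary most.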
